A study of Mus musculus with 16 samples.

Results

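The genes described here carry the symbols of proteins of the cytosolic ribosome, and Rps4l among them is annotated as a pseudogene. They are the 77 genes whose mouse symbol is Rpl, Rps or Rplp followed by a number, with at most a final a, x or l, and whose mean over all 16 libraries was at least 5 CPM (counts scaled to a common library size). The table held 55356 gene identifiers, of which 82 carried such a symbol. The 77 split into 31 genes of the small subunit (Rps) and 46 of the large subunit (Rpl and Rplp). The rule used no difference between groups. The 5 genes left out were Rpl10l, Rpl39l and Rpl3l, at 0, 0.00174 and 0.0337 CPM, and Rpl32l and Rpl6l just outside the minimum at 1.42 and 1.49 CPM. Just inside it lay Rps27l, Rps4l and Rpl35a, at 8.75, 9.56 and 15.2 CPM. A few ribosomal protein genes, such as Rpsa and Fau, have symbols of another form and are given separately.

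RNA came from dorsal root ganglion neurons of CD1 mouse embryos, sensory neurons grown in culture to day 6 in vitro in medium with nerve growth factor, 5-fluoro-2'-deoxyuridine and uridine. All cultures first received DMSO, the solvent, or 500 nM GNE3511, which blocks DLK, the dual leucine zipper kinase that reports axon damage to the nucleus. After 15 min they received DMSO or 200 nM nocodazole, which makes microtubules fall apart, for 16 h. The 4 groups of 4 libraries are called DMSO (DMSO then DMSO), nocodazole (DMSO then nocodazole), inhibitor (GNE3511 then DMSO) and inhibitor plus nocodazole (GNE3511 then nocodazole, also called the combined group). The labels give no age, sex or genotype beyond the strain, and do not say that replicates were separate cultures or animals, and a p-value here is therefore set against a spread between libraries that may be only technical. A single inhibitor at a single dose was used, so effects through DLK and through other targets cannot be told apart.

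A ribosome joins a small subunit, which reads the mRNA, to a large subunit, which forms peptide bonds, and each cytosolic ribosome carries a single copy of most of its proteins. Ribosomal protein mRNAs are abundant, mostly short and long-lived, and many begin with a run of pyrimidines, the terminal oligopyrimidine tract, through which mTORC1 and the binding protein Larp1 control their translation and stability. Neurons also carry ribosomes and ribosomal protein mRNAs into their axons.

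The first bases of these genes are shown because the pyrimidine tract is the best known shared feature of the family, and the selection did not use it. Each window holds 20 bases before and 20 from the RefSeq start site (assembly GRCm38.p6), and capitals mark a stretch of C followed by at least 4 bases that are C or T, read on the transcript's strand only and starting within 10 bases of the annotated start. The set spans Rps6, the substrate of S6 kinase, genes called after nocodazole (Rpl12, Rpl35, Rpl38, Rps15a, Rps27) and a gene called after the inhibitor, Rps13. In Rps13 no such stretch started within 10 bases of the annotated start. Stretches that start further away are left in small letters, as near the end of the Rps13 window. Rpl24, also called after nocodazole and not shown, had no such stretch within 10 bases either. Rps6 lies at chr4:86857348-86857387 (minus strand), Rpl12 at chr2:32961692-32961731 (plus), Rpl35 at chr2:39005112-39005151 (minus), Rpl38 at chr11:114668560-114668599 (plus), Rps15a at chr7:118116128-118116167 (minus), Rps27 at chr3:90213629-90213668 (minus) and Rps13 at chr7:116334171-116334210 (minus).
Rps6: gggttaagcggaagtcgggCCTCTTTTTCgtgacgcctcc
Rpl12: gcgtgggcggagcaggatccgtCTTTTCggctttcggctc
Rpl35: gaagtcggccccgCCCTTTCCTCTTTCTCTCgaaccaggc
Rpl38: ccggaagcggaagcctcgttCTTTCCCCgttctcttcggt
Rps15a: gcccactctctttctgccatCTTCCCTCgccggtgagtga
Rps27: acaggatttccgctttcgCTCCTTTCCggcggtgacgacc
Rps13: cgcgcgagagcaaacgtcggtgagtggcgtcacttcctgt

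RefSeq start sites were at hand for 56 of the 77 genes, and 35 of them (62.5%) had such a stretch within 10 bases of a start. The share was 34.4% over all 27025 genes of the same table and 31 of 66 for mitochondrial ribosomal protein genes. With the stretch required at the annotated first base itself, 13 of the 56 (23.2%) had it. The share was then 3.01% of all genes and 0 of 66 mitochondrial ribosomal protein genes. In Rpl38 and Rps15a it started at the annotated first base, and in Rps27 and Rps6 it started before it, so the share depends on how exactly the start is annotated. A match is only a description of these letters.

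Rps4l and Rps27l had the largest changes after nocodazole. Rps27l encodes a close relative of the small-subunit protein that Rps27 encodes, and is known as a target of p53. Rps4l resembles the X-linked Rps4x, has a single exon, and is classed as a transcribed processed pseudogene in the GENCODE M21 annotation; the other 76 genes are classed as protein coding. The coding sequences of Rps27 and Rps27l (GENCODE M21, GRCm38) are shown because the pair was counted separately and its members differ in level. Capitals mark the bases that differ.
Rps27: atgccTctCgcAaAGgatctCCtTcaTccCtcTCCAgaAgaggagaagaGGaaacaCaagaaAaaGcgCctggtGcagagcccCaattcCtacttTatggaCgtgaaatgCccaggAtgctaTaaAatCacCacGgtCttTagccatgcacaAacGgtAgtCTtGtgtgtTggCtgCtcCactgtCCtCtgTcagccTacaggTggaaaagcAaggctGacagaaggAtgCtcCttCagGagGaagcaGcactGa
Rps27l: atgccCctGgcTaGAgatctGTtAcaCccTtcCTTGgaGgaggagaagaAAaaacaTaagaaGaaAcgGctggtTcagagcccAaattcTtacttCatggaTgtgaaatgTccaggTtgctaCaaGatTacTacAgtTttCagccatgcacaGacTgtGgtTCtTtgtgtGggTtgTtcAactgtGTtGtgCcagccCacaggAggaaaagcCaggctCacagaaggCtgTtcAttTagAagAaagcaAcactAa
Both are 255 bases long and 194 bases (76.1%) are the same. The longest stretch they share is 11 bases. The whole Rps4l transcript matched the Rps4x coding sequence at 79.9% of 783 aligned bases, with a longest shared stretch of 35 bases. How reads matching several genes were counted is not given in the sources used here. The ribosomal protein genes have many processed copies in the genome (the annotation names 289 pseudogene identifiers for 59 of them in the table), so values of single genes can hold reads shared with such copies.

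The libraries held 30987962 to 43321421 counts. Markers of neurons dominated, with summed levels over 14 genes of 19132 to 20546 CPM in the DMSO group, 15776 to 19098 in the nocodazole group, 16298 to 18875 in the inhibitor group and 15068 to 18395 in the inhibitor plus nocodazole group. All DMSO libraries lay above all nocodazole libraries in this sum, and after nocodazole 4 of the 14 rose and 1 fell. The 12 markers of Schwann cells and satellite glia summed to 1623 to 2063 CPM in the DMSO group, 1096 to 1735 in the nocodazole group, 1109 to 1740 in the inhibitor group and 958 to 1683 in the inhibitor plus nocodazole group. After nocodazole 1 of these 12 rose and 4 fell. The 10 fibroblast markers summed to at most 79.8 CPM, those of endothelial cells, pericytes and dividing cells to at most 3.96 CPM, and those of muscle to at most 13.5 CPM in any library. The 6 macrophage markers summed to 4.22 to 5.50 CPM in the nocodazole group, above every library of the DMSO (2.28 to 2.79), inhibitor (1.62 to 2.88) and combined groups (1.87 to 3.03 CPM), and 0 of them rose and 1 fell in edgeR's test after nocodazole. No marker gene in these lists was at 0 in every library, and the part of these cell types in the results below was not tested. Transcripts of the mitochondrial genome took 0.894% ± 0.130 of the counts in DMSO and 1.18% ± 0.300 in nocodazole (SD, n = 4). They took most in replicate 3 of the inhibitor group (1.78%) and replicate 1 of the inhibitor plus nocodazole group (1.71%). Those 2 libraries also had the highest shares of ribosomal protein counts in their groups, so counts below are given with and without them where they move.

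The 77 genes together took about 1 in 100 counts of each library. In the DMSO group the share was 0.857%, 0.848%, 0.929% and 0.907% in replicates 1 to 4, a mean of 0.885% ± 0.0392 (SD, n = 4). In the nocodazole group it was 0.939%, 1.03%, 1.05% and 0.968%, a mean of 0.997% ± 0.0526 (SD, n = 4). The 4 nocodazole libraries therefore all lay above the 4 DMSO libraries. In the inhibitor group the share was 0.814%, 0.867%, 1.00% and 0.897%, a mean of 0.895% ± 0.0799 (SD, n = 4). In the inhibitor plus nocodazole group it was 0.973%, 0.880%, 0.855% and 0.917%, a mean of 0.906% ± 0.0513 (SD, n = 4). The inhibitor and the combined group overlapped with the DMSO group, and replicate 3 of the former and replicate 1 of the latter reached the range of the nocodazole libraries. Both subunits showed this order: the small subunit genes took 0.313% ± 0.0133 of the counts in DMSO and 0.358% ± 0.0217 in nocodazole, and the large subunit genes 0.572% ± 0.0259 and 0.639% ± 0.0310 (SD, n = 4 each). Malat1, a nuclear RNA, was at 7513 ± 1001 CPM in DMSO and 12089.6 ± 737 CPM in nocodazole (SD, n = 4). It was at 10252.5 ± 1278 CPM in the inhibitor group and 10062 ± 1170 CPM in the combined group (SD, n = 4). All libraries of these last groups lay above every DMSO library for Malat1, while their share of ribosomal protein counts overlapped with DMSO. Without Malat1 and the mitochondrial genes in the total, the share of ribosomal protein counts was 0.900% ± 0.0396 in DMSO and 1.02% ± 0.0533 in nocodazole. In whole cultures like these, fewer cells of a type and less RNA per cell cannot be told apart.

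**Figure D1:**
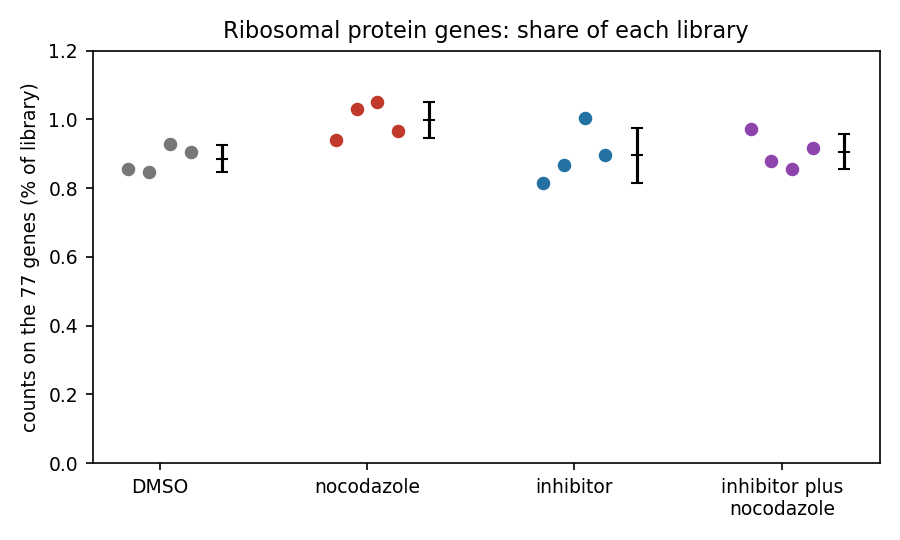
Percent of each library's counts that fell on the 77 ribosomal protein genes, by group; each dot is a library and the bar with whiskers is the mean and SD of 4. The nocodazole libraries lie between 0.939% and 1.05%, above all DMSO libraries (0.848% to 0.929%).

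Levels of different genes can be compared only per transcript length, so the mean CPM of each gene over 16 libraries was divided by the length of its annotated principal transcript. The median was 126 CPM per kb, and the middle 50% of the genes lay between 86.9 and 174 CPM per kb. Highest were Rpl41, which encodes a very short peptide of the large subunit, at 573 CPM per kb, the stalk gene Rplp1 at 379 and the mRNA-entry gene Rps2 at 313. Lowest were Rps27l at 17.5, Rps15a at 13.3 and Rps4l at 10.1 CPM per kb. The place of Rps15a follows from an annotated transcript of 5179 bases, while the median length over the 77 genes was 878 bases. With the union of all annotated exons as the length, the median was 58.8 CPM per kb and 7 of the 10 highest genes were among the 10 highest by either length. Rps27 stood at 99.7 CPM per kb, against the 17.5 of its partner Rps27l.

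**Figure D2:**
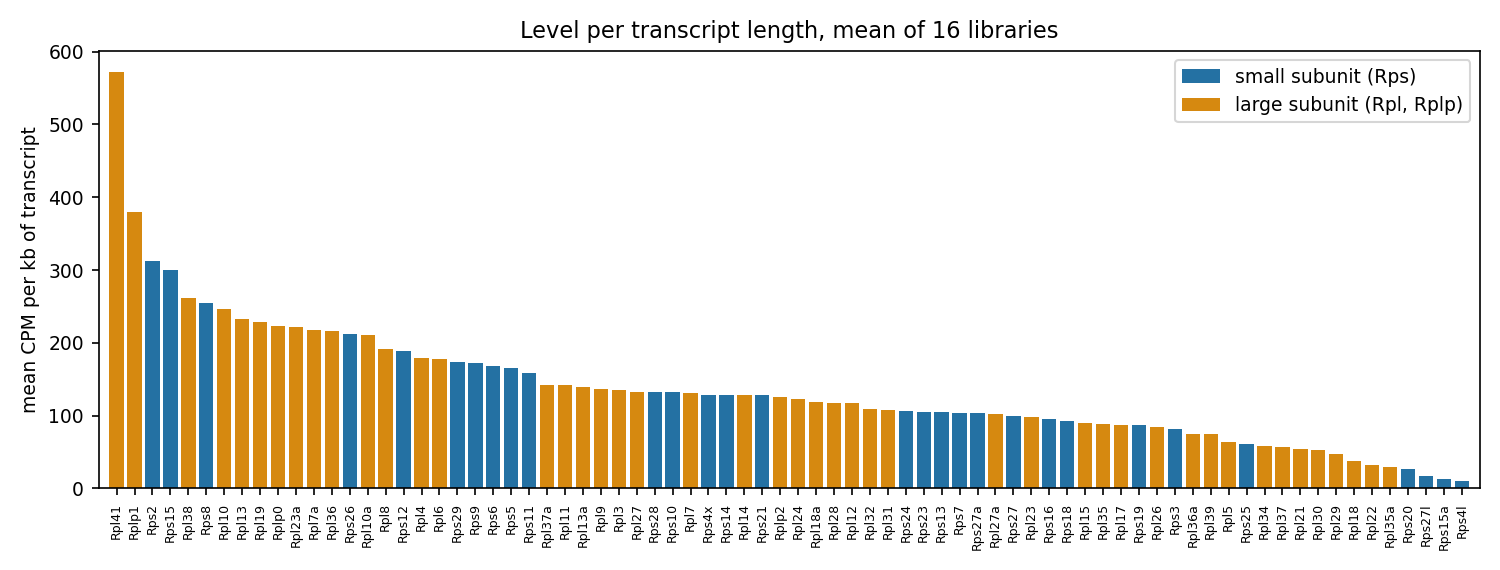
Mean CPM per kb of annotated principal transcript for 76 of the 77 genes, mean of 16 libraries, in falling order; blue bars are small subunit genes and orange bars large subunit genes. Rpl41 stands highest at 573 and Rps4l lowest at 10.1 CPM per kb.

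The first comparison asked how these genes responded to the loss of microtubules. After nocodazole, 17 of the 77 genes rose and 0 fell in edgeR's quasi-likelihood test at an adjusted p below 0.05. Among all 19156 genes tested, 18.6% rose and 19% fell, so the number that rose was near that of genes at large and the number that fell was below it. The changes were small: the median was 0.13 on the log2 scale (a fold of 1.09) beside 0.01 for all genes, and 76 of the 77 estimates were above 0. For 73 of the 77 genes the 95% interval of the change lay within 0.5 either side of 0 on the log2 scale, that is within a fold of 1.41, as it did for 38.8% of all genes. The precision was higher than usual for this table, with a median SE of 0.0697 beside 0.145 for all genes. In 20 genes all 4 nocodazole libraries were above all 4 DMSO libraries, and in 0 genes below; over all genes the shares were 18% and 18.9%. With the 2 libraries of highest mitochondrial share left out, 26 rose and 0 fell. Those 2 libraries are in neither group of this comparison and enter it only through the shared estimate of the spread and the library scaling. Without DMSO replicate 2, 11 rose, while among all 19156 genes 3033 rose, against 3556 with all libraries.

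Rps4l changed most. Its level was 7.78, 9.28, 7.35 and 8.96 CPM in the DMSO libraries and 12.6, 14.2, 14.3 and 14.5 CPM in the nocodazole libraries. It was 7.13, 8.08, 8.74 and 7.65 CPM with the inhibitor alone and 10.9, 7.74, 7.08 and 6.67 CPM with inhibitor plus nocodazole. All nocodazole libraries lay above every other library, and replicate 1 of the combined group was the next highest. The change after nocodazole was 0.74 ± 0.133 (log2, SE, edgeR adjusted p = 0.000402), a fold of 1.66. Rps4x, the protein-coding gene that Rps4l resembles, was at 124, 118, 130.0 and 137 CPM in DMSO. After nocodazole Rps4x was at 122, 126, 140.3 and 133 CPM. These Rps4x groups overlapped, and the change was 0.03 ± 0.0562 (log2, SE, edgeR adjusted p = 0.683). Whether the Rps4l and Rps4x changes differ was not tested.

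Rps27l was next. It stood at 7.84, 7.12, 7.39 and 7.94 CPM in DMSO and at 10.3, 12.4, 12.1 and 10.6 CPM after nocodazole. With the inhibitor alone it was at 6.91, 7.93, 10.8 and 8.79 CPM and with inhibitor plus nocodazole at 8.26, 7.49, 7.04 and 6.90 CPM. The nocodazole libraries lay above all DMSO and all combined libraries, and replicate 3 of the inhibitor group lay among them. The change after nocodazole was 0.58 ± 0.119 (log2, SE, edgeR adjusted p = 0.00107). Its partner Rps27 was at 30.5, 29.4, 34.6 and 32.7 CPM in DMSO and 35.0, 36.9, 42.4 and 35.5 CPM after nocodazole. All 4 nocodazole libraries were above the DMSO libraries for Rps27 too, with a change of 0.24 ± 0.0860 (log2, SE, edgeR adjusted p = 0.0403) that was called in 8 of the 16 fits that each left out 1 library.

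Rps12, Rpl12 and Rpl17 followed. Rps12, a protein of the small subunit's beak, was at 96.5, 94.5, 101 and 99.5 CPM in DMSO and at 103, 125, 159 and 137 CPM after nocodazole, a change of 0.42 ± 0.113 (log2, SE, edgeR adjusted p = 0.00794). Its nocodazole libraries were all above the DMSO libraries and spread the most, by an SD of 23.2 CPM against 3.02 CPM. Rpl12, a protein at the base of the stalk, was at 137, 127, 128 and 136 CPM in DMSO and at 168, 198, 166 and 159 CPM after nocodazole, a change of 0.39 ± 0.0978 (log2, SE, edgeR adjusted p = 0.00507). The groups did not overlap. Rpl17, near the exit of the peptide tunnel, went from 105, 99.8, 114 and 110.1 CPM to 124, 136, 140.2 and 132 CPM, also without overlap, a change of 0.31 ± 0.0817 (log2, SE, edgeR adjusted p = 0.00675). The other 12 genes that rose were Rps14, Rps15a, Rpl32, Rps2, Rpl35, Rps24, Rps27, Rpl30, Rps27a, Rpl24, Rpl38 and Rpl10a, with log2 changes from 0.30 down to 0.18. Of the 17, 10 kept their call in each of the 16 fits that left out a library and under the other settings tried, and Rps4l, Rps27l, Rps12, Rpl12 and Rpl17 were among them.

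**Figure D3:**
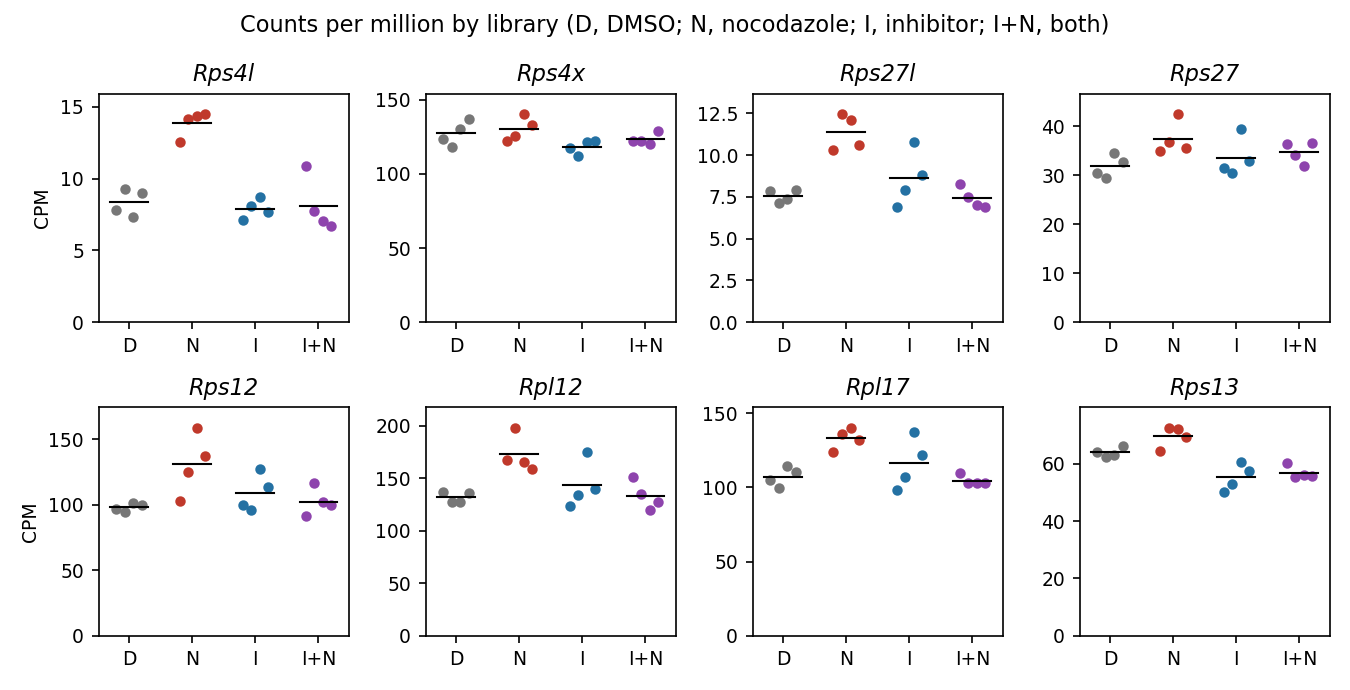
CPM of 8 genes in every library, by group (D, DMSO; N, nocodazole; I, inhibitor; I+N, both); each dot is a library, the bar is the mean of 4, and each vertical axis starts at 0. Rps4l and Rps27l are highest in the nocodazole group (12.6 to 14.5 and 10.3 to 12.4 CPM), while Rps4x overlaps between groups.

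By role in the ribosome the increases were spread out. In the small subunit 9 of 31 genes rose and in the large subunit 8 of 46, with median log2 changes of 0.16 and 0.12. Among 8 genes lining the mRNA path, Rps14 and Rps2 rose (0.30 and 0.26, log2), while Rps3 at the entry, and Rps26 and Rps28 at the exit, had changes of 0.19, 0.02 and 0.17 that were not called. Among 9 genes of the 5S particle and the peptide exit, Rpl17 and Rpl35 rose, and Rpl5 and Rpl11, which bind Mdm2 when free, had changes of 0.14 and 0.01 that were not called. The 3 stalk genes, which recruit elongation factors, were not called, at 0.13 for Rplp0, 0.03 for Rplp1 and 0.09 for Rplp2. Of the small subunit genes Rps24 and Rps19, which are mutated in Diamond-Blackfan anaemia, Rps24 rose (0.24) and Rps19 had a change of 0.18 that was not called. Of the remaining genes named by role, Rps27a (fused to ubiquitin), Rpl24 and Rpl38 rose by 0.21, 0.21 and 0.20. Rps6, Rpl3, Rpl10, Rpl4, Rpl39, Rpl22, Rpl13a and Rps25 had changes of 0.11, 0.01, 0.10, 0.14, 0.03, 0.01, 0.21 and 0.18 that were not called. Rpl36a had the only estimate below 0, at -0.10 ± 0.0682 (log2, SE, edgeR adjusted p = 0.258), with 37.7, 34.9, 37.0 and 36.3 CPM in DMSO and 31.3, 35.0, 35.9 and 33.9 CPM after nocodazole, groups that overlapped.

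Many of the genes hold small nucleolar RNA genes in their introns, which guide the modification of ribosomal RNA. Of the 27 such genes 5 rose after nocodazole, and of the other 50 genes 12 rose, with median log2 changes of 0.14 and 0.12. Of the 11 genes that rose and have a RefSeq start site, 10 had a pyrimidine stretch starting within 10 bases of a start. Of the 45 that were not called 25 had such a stretch. At the annotated first base itself the counts were 4 of 11 and 9 of 45. In Rpl10a and Rps27l, which rose, the stretch lay wholly before the annotated start, and another annotated start of each gene had none. These splits were not tested.

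The inhibitor without nocodazole left the genes close to their DMSO levels. Only Rps13, a small subunit protein, was called: it fell from 64.2, 62.6, 63.3 and 66.4 CPM in DMSO to 50.2, 52.8, 60.7 and 57.6 CPM. These groups did not overlap. The change was -0.21 ± 0.0604 (log2, SE, edgeR adjusted p = 0.0297), and it was not called with raw library totals (adjusted p = 0.113) or without DMSO replicate 2, 3 or 4 or inhibitor replicate 1 or 2. So 0 of 77 rose and 1 fell, beside 5.78% and 7.24% of all genes, and the median change was -0.02 on the log2 scale (0.03 for all genes), or 0.02 with raw library totals (0.07 for all genes). All 77 intervals lay within 0.5 either side of 0. Without inhibitor replicate 3, 2 genes fell, and with both libraries of high mitochondrial share left out, 3 fell and the median was -0.08.

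With the inhibitor present, none of the genes passed the test after nocodazole. Against inhibitor alone, 0 rose and 0 fell in edgeR's test, beside 0.0783% and 0.00522% of all genes (0.0835% in either direction), and DESeq2 also called 0. In 0 genes did the libraries of these groups lie fully apart, beside 2.03% of all genes higher and 1.25% lower. At an unadjusted p below 0.05 there were 0 genes as well. The median change was 0.01 (log2), or -0.02 without inhibitor replicate 1, and all 77 intervals lay within 0.5 either side of 0. Rps4l changed by 0.04 (95% interval -0.25 to 0.32) and Rps27l by -0.21 (95% interval -0.46 to 0.04) on the log2 scale. Against DMSO, inhibitor plus nocodazole also gave 0 that rose and 0 that fell in edgeR's test (8.26% and 8.48% of all genes), with 2 genes at an unadjusted p below 0.05 and 2 that fell in DESeq2. The median change was -0.02 (log2), or 0.04 with raw library totals. This comparison shares its combined libraries with the others and its DMSO libraries with the first.

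**Figure D4:**
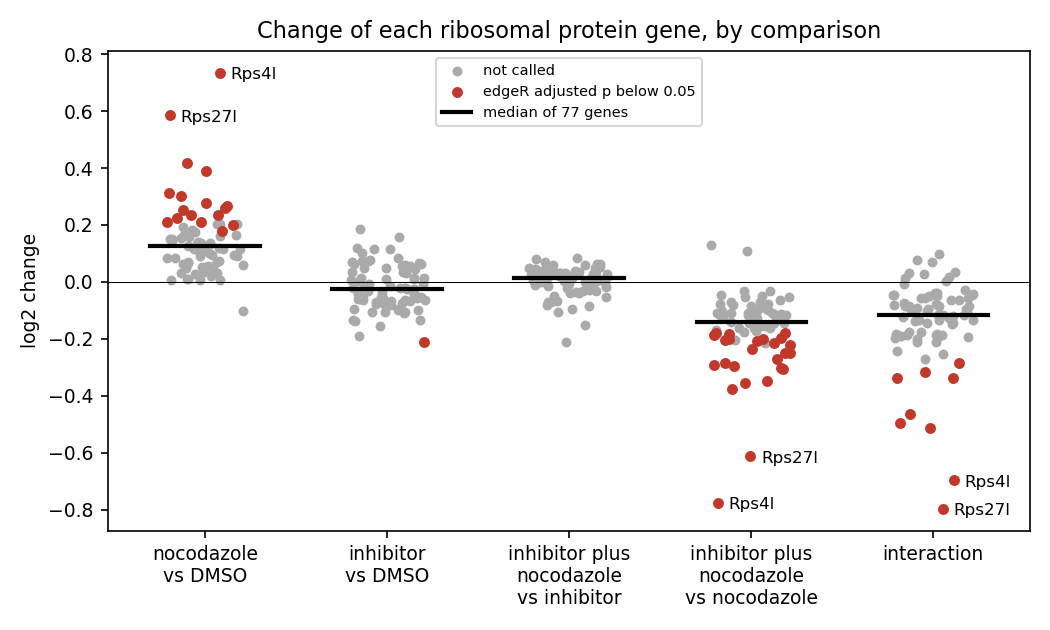
Log2 change of each of the 77 genes in 4 pairwise comparisons and the interaction (the effect of nocodazole under inhibitor less its effect under DMSO); red dots have an edgeR adjusted p below 0.05 and the black bar is the median. The median is 0.13 after nocodazole, -0.14 for inhibitor plus nocodazole against nocodazole and near 0 in the comparisons between.

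Between the nocodazole-treated groups, the genes were lower with the inhibitor. In edgeR's test 0 rose and 25 fell, beside 17.7% and 16.2% of all genes, and the median change was -0.14 (log2, a fold of 0.906) beside 0.00 for all genes. In 25 genes all combined libraries lay below all nocodazole libraries, beside 14.2% of all genes. Since this comparison shares the nocodazole libraries with the first, the values are set side by side and are not independent. Rps4l changed by -0.78 ± 0.133, Rps27l by -0.61 ± 0.119 and Rpl12 by -0.38 ± 0.0978 (log2, SE, edgeR adjusted p = 0.000271, 0.000796 and 0.00662). In the same libraries Rpl12 was at 151, 135, 119 and 127 CPM in the combined group, below every nocodazole library. Rps12 changed by -0.36 ± 0.113 and Rpl17 by -0.35 ± 0.0818 (edgeR adjusted p = 0.0217 and 0.00338). Rps12 was at 91.2, 117, 102 and 99.5 CPM in the combined group, and its replicate 2 lay above nocodazole replicate 1. Rpl17 was at 109.6, 103, 103 and 103 CPM in the combined group, below every nocodazole library. The call of Rps12 was lost without nocodazole replicate 3 or 4 or combined replicate 1 or 4.

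Of the genes that fell, 11 were among the 31 of the small and 14 among the 46 of the large subunit. Rps6, the S6 kinase substrate, stood at 151, 170.2, 169 and 157 CPM in nocodazole and at 145, 135, 138 and 145 CPM in the combined group, without overlap, a change of -0.20 ± 0.0624 (log2, SE, edgeR adjusted p = 0.0190). Rpl5 of the 5S particle fell by 0.25 and Rps13 by 0.29 (log2, with an edgeR adjusted p = 0.00275 and 0.00122), and Rpl11, the partner of Rpl5, had a change of -0.12 that was not called. Rps2 and Rps14 fell by 0.24 and 0.31, Rpl35 and Rpl32 by 0.29 and 0.28, and Rps3 by 0.22 with an edgeR adjusted p of 0.0498, which only 6 of the 16 fits without a library kept. None of the 3 stalk genes was called, with changes of -0.08, -0.03 and -0.16 for Rplp0, Rplp1 and Rplp2. Rpl22, an RNA-binding protein of the large subunit, and Rpl36a were the 2 estimates above 0, at 0.13 and 0.11, neither of them called. Of the 25 genes, 13 kept the call in every fit without a library and under the other settings tried. Without nocodazole replicate 2 or 3, or combined replicate 3, 15, 15 and 16 fell, and with the 2 libraries of high mitochondrial share left out, 36 fell.

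The difference between the nocodazole change with and without inhibitor was tested directly as an interaction. It was below 0 in 9 genes and above 0 in 0 in edgeR's test, beside 9.2% and 9.52% of all genes, so the number below 0 was near that of genes at large and the number above 0 was under it. Rps27l (-0.80 ± 0.169), Rps4l (-0.70 ± 0.189), Rps12 (-0.51 ± 0.159), Rpl12 (-0.50 ± 0.138) and Rpl17 (-0.46 ± 0.116) had the largest values on the log2 scale (SE, edgeR adjusted p = 0.00411, 0.0175, 0.0340, 0.0203 and 0.0112). The other 4 genes were Rpl32, Rpl35, Rps24 and Rps15a, from -0.34 to -0.28. The interaction uses the same libraries as the pairwise comparisons. Replicate 3 of the inhibitor group, with its high levels of Rps27l (10.8 CPM), Rps12 (127 CPM), Rpl12 (175 CPM) and Rpl17 (137 CPM), enters the interaction through the inhibitor mean, which is subtracted. Without it 5 genes were called, and without DMSO replicate 2 also 5. In the fit without DMSO replicate 2, 1427 of all 19156 genes were below 0, against 1763 with all libraries. Rps27l, Rpl12, Rpl17 and Rps4l were called in every fit without a library and under all the other settings tried, whereas Rps12 was called in 7 of the 16 fits without a library and not with both libraries of high mitochondrial share left out.

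**Figure D5:**
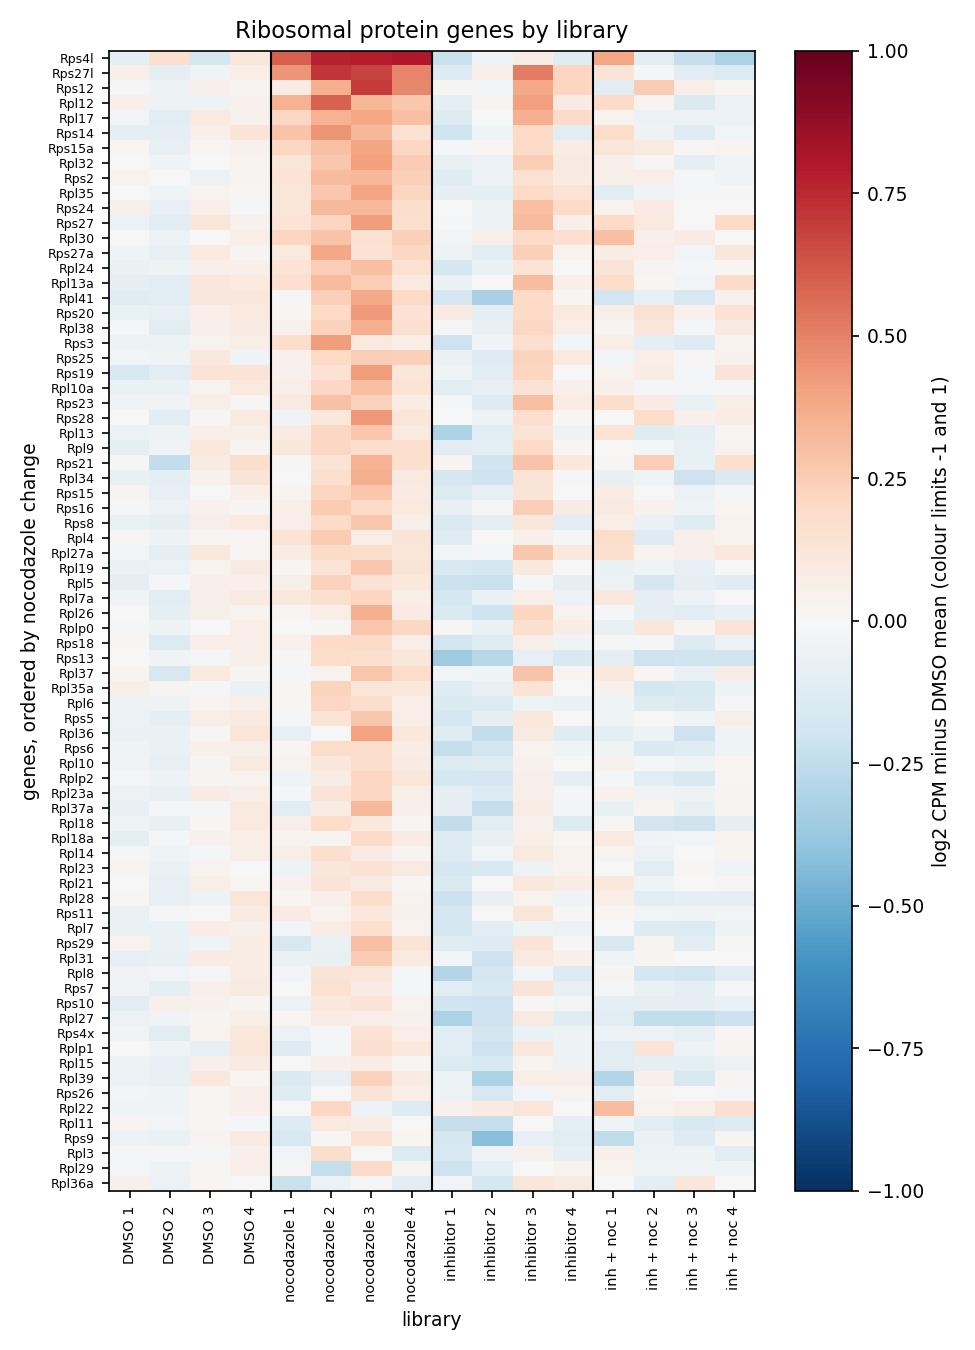
Log2 CPM of 76 of the 77 genes in the 16 libraries relative to the DMSO mean of each gene (rows, ordered by the nocodazole change; columns, libraries by group; colour limits -1 and 1). Rps4l and Rps27l head the nocodazole columns, and replicate 3 of the inhibitor group is the highest of its group for Rps27l, Rps12, Rpl12 and Rpl17.

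The genes varied together between libraries. The level of each gene across the 16 libraries was compared with the mean of the other 76, and the correlation was highest for Rpl10a (r = 0.979) and lowest for Rpl36a (r = 0.0445) and Rpl22 (r = -0.0245). The libraries share the groups and the library scaling, so this is a description. Rpl22 was at 62.7, 63.0, 65.2 and 66.7 CPM in DMSO and 79.5, 65.9, 67.0 and 71.8 CPM in the combined group, where replicate 1 was highest. Among 7204 genes outside the set with a mean of at least 20 CPM, the 10 whose level was most like the mean of the 77 across the 16 libraries were Gm2000, Gm10260, Rpl34-ps1, Uqcrq, Use1, Bcas2, Nme2, Mea1, Gm15772 and Ccnl2 (r from 0.914 to 0.870). Rpl34-ps1 and Gm15772 are annotated as processed pseudogenes.

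Ribosomal protein genes with other symbols gave the following. Of 8 such genes, Fau (0.22) and Rpsa (0.17, log2) rose after nocodazole and 0 fell, and 1 of 8 fell between the combined and the nocodazole group. Rack1, a scaffold on the small subunit, had a nocodazole change of 0.12 that was not called. The mitochondrial ribosomal proteins build a separate ribosome in mitochondria. Of their 75 genes 3 rose and 17 fell after nocodazole, beside 18.6% and 19% of all genes. The number that fell was thus near that of genes at large, and the number that rose was below it. Their median change was -0.12 (log2), beside 0.01 for all genes. The largest falls were in Mrps12 and Mrpl34, both at -0.56 on the log2 scale. Between the combined and the nocodazole group 13 of the 75 rose and 10 fell, beside 17.7% and 16.2% of all genes. In the interaction 9 were above 0 and 1 below, beside 9.52% and 9.2% of all genes. The difference between mitochondrial and cytosolic genes was not tested.

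The genes that make and regulate the ribosome moved in both directions. Of 60 assembly factors 12 rose and 10 fell after nocodazole, with Nop14 (0.71) and Ddx10 (0.65) highest, and of 27 genes of RNA polymerases I and III and their factors 3 rose and 5 fell, with Gtf3c1 lowest at -0.44 (log2). Of 20 translation factors and relatives with pyrimidine tract RNAs, 3 rose and 2 fell, and the host of small nucleolar RNAs Gas5 rose most, by 0.54. Of 38 mTORC1 and pyrimidine tract regulators, 12 rose and 6 fell. The mTORC1 inhibitors Sesn2 and Ddit4 rose by 1.98 and 1.60 and the translation repressor gene Eif4ebp1 by 1.12, while Castor2, a relative of the arginine sensor Castor1, fell by 1.11 on the log2 scale. Larp1, which binds the tract, had a change of 0.05 (edgeR adjusted p = 0.515). Of 12 genes of the Myc family 2 rose and 2 fell, and Myc, a transcription factor that drives ribosomal genes, went from 45.8 ± 1.98 CPM in DMSO to 24.8 ± 3.68 CPM (SD, n = 4 each), a change of -0.88 ± 0.130 (log2, SE, edgeR adjusted p = 5.93e-05). The share that rose among all tested genes was 18.6% and the share that fell 19%. Of 30 other initiation factors 5 rose and 2 fell, led by Eif5 at 0.42, of 19 ribosome rescue genes 3 rose and 5 fell, and of 11 importins and chaperones 1 rose and 3 fell.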

How the data were processed

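Libraries were made from total RNA depleted of ribosomal RNA (Kapa RiboErase), per the labels' protocols. The authors deposited whole-number counts by Ensembl gene in a single table. Per the submitters' processing notes, STAR, Salmon and the GRCm39 build were used, with no versions. Which tool gave the counts, the strand setting and how reads matching several genes were handled are not given in the sources used here, so near-identical copies and overlapping genes are uncertain. Columns were named by sample number and were matched to groups through the description and title of each sample. The sample numbers have gaps, and 0 columns of the table were left unused. Symbols, lengths and gene types came from GENCODE M21 (GRCm38, a different build, so no coordinates were taken from it), which named 52080 of 55356 identifiers. Start windows came from RefSeq, GRCm38.p6.

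Library totals were 30987962 to 43321421. No library copied another: chi-square divided by its degrees of freedom ran from 7.52 to 45.9 over the 24 pairs within groups. TMM factors were 0.959 to 1.06, and edgeR 4.0.16 (R 4.3.3) fitted a quasi-likelihood model with a mean per group to all 16 libraries, on 19156 genes passing filterByExpr. All 77 ribosomal protein genes passed. Log2 changes are those of the fit with edgeR's default prior count, and the correlations use log2 CPM with a prior count of 2. The SE is derived from the test, and adjusted p is Benjamini-Hochberg over all tested genes of a comparison, called below 0.05. Intervals are 95%. Simulated counts (18807 genes) for nocodazole against DMSO gave back 93 of 100 genes changed by 1 and 74 of 100 changed by 0.5 on the log2 scale, with 8 false calls. For the interaction it gave back 85 and 27 of 100. The changed genes were all drawn from those above 5 CPM, and no other gene was changed. In the data 37.5% of genes were called after nocodazole, so these figures need not carry over.

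Named genes were a fixed set by role, up to 5 called genes per direction in each comparison by size, and the 3 highest and 3 lowest per length. The list genes named are up to 4 called genes of at least 10 CPM with the largest change, or fixed ones. The genes and lists were chosen with earlier results of these data known. Some genes are not reported here by name, though counts include them. Alternatives were DESeq2 1.42.0, limma 3.58.1 with voom, other scalings, no filter, a replicate block, fits on 8 libraries, added pseudogene counts and leaving out each library.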

Additional observations from a re-analysis of the deposited data

Results flagged for a closer look

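In 28 groups of 4 libraries tested for a library far from the other 3 (chance gives about 1 in 20), 3 were found. Rps4l was at 12.6 CPM in nocodazole replicate 1, and at 14.2 to 14.5 CPM in the other 3 nocodazole libraries. Rpl17 was at 109.6 CPM in replicate 1 of inhibitor plus nocodazole, and at 103 to 103 CPM in the other 3. Rps13 was at 60.2 CPM in the same library and at 55.4 to 56.0 CPM in the other 3. That library had a mitochondrial share of 1.71%; the part of this in the values was not tested.

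The nocodazole change differed with and without the inhibitor, by edgeR's interaction test, in 9 genes. The difference (with minus without, log2) was -0.80 for Rps27l, -0.70 for Rps4l, -0.51 for Rps12, -0.50 for Rpl12, -0.46 for Rpl17, -0.34 for Rpl32, -0.34 for Rpl35, -0.32 for Rps24 and -0.28 for Rps15a.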

How the results depend on the processing

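None of the named single-gene changes turned its direction under the alternatives run. Medians of the 77 genes that lay near 0 changed sign: after the inhibitor from -0.02 to 0.02 (log2) and for inhibitor plus nocodazole against DMSO from -0.02 to 0.04 with raw library totals, the latter to 0.01 without DMSO replicate 4, and for inhibitor plus nocodazole against inhibitor from 0.01 to -0.02 without inhibitor replicate 1 and to -0.01 without inhibitor replicate 2. Without replicate 1 of inhibitor plus nocodazole this last median was -0.00058. Counts that moved by over 1.5 times, or from or to 0, were these. Without a filter on low counts, 11 genes rose after nocodazole and 5 were called in the interaction. With raw library totals, 0 fell after the inhibitor. Against DMSO, inhibitor plus nocodazole gave 2 that fell in DESeq2, 1 with RLE scaling and 2 on its own 8 libraries. Leaving out 1 library gave 11 to 22 that rose after nocodazole, 0 to 2 that fell after the inhibitor, 15 to 32 that fell and 0 to 1 that rose for inhibitor plus nocodazole against nocodazole, 0 to 2 that fell against DMSO and 5 to 12 called in the interaction. As an alternative chosen after seeing the data, the 2 libraries with the highest mitochondrial shares were left out. Then 26 rose after nocodazole, 3 fell after the inhibitor, 36 fell for inhibitor plus nocodazole against nocodazole, 2 fell against DMSO and 7 were called in the interaction. With pseudogene counts added, the share was 0.930% in DMSO and 1.05% in nocodazole. The pyrimidine stretch at the exact start was found in 23.2%. The cause of these moves was not tested.

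The replicate numbers showed little sign of pairing the libraries: of 24 same-numbered pairs across groups, 8 correlated above 0.1 (range -0.399 to 0.232). These correlations cannot show whether same-numbered libraries shared a culture or a batch. With a replicate block, 20 genes rose after nocodazole, 23 fell for inhibitor plus nocodazole against nocodazole and 9 were called in the interaction.

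The median SE of 0.0697 limits what can be called: the upper quartile of the 77 nocodazole changes was 0.19 on the log2 scale.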
